A study of Mus musculus with 10 samples.

Results

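The small leucine-rich proteoglycan genes *Lum*, *Dcn*, *Ogn*, *Aspn*, *Bgn*, *Fmod*, *Omd*, *Prelp*, *Kera* and *Epyc* were followed in the embryonic mouse outer ear. They were taken by name as a gene family, with earlier results of these data known, and their Ensembl identifiers matched 10 of the 53465 genes in the count table. Whole pinna prominences, the forming outer ears, were micro-dissected from E14.5 embryos and sequenced as bulk RNA. The comparison was between 5 wild-type (WT) embryos and 5 *mEC1dup/dup* embryos, all on a C57BL/6J background. The *mEC1dup/dup* embryos are homozygous for a CRISPR/Cas9 knock-in that adds an extra copy of mEC1, an enhancer that drives the homeobox transcription factor gene *Hmx1*, so that each allele carries it in duplicate. WT embryos carry a single copy per allele, every cell of a mutant embryo carries the knock-in, and the whole prominence was taken without sorting of cells. The study modelled bilateral constricted ear, a human malformation of the outer ear, and the comparison asked which genes differ in the mutant prominence.

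Small leucine-rich proteoglycans are secreted proteins built of leucine-rich repeats behind an amino-terminal cluster of cysteines. Most bind collagen fibrils and govern how fibrils form and how thick they grow, and several bind TGF-beta or its relatives. The family is sorted into classes by the spacing of the cysteines and by the sugar chains attached: class I (decorin, biglycan, asporin) mostly carries chondroitin or dermatan sulfate, class II (lumican, fibromodulin, PRELP, keratocan, osteomodulin) mostly carries keratan sulfate or its unsulfated form, and class III (epiphycan, osteoglycin) has fewer repeats. In skin, tendon, perichondrium and cartilage these genes mark the fibroblasts and chondrocytes that lay down matrix.

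The cysteine cluster was read from the coding sequence of the reference transcript of each gene (GENCODE M39 on GRCm39), and it is shown here because its spacing is what sorts the 10 genes into classes. Capitals mark the codons of the 4 cysteines. In class I, 3 residues, 1 residue and 6 residues separated them, and each stretch lay in exon 2:
*Dcn*, chr10:97319369-97319410, plus strand: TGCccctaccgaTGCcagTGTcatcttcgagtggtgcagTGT
*Bgn*, chrX:72534585-72534626, plus strand: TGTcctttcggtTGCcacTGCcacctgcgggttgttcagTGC
*Aspn*, chr13:49705341-49705382, plus strand: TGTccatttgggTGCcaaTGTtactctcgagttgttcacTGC

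In class II the last gap was 9 residues, and these stretches also lay in exon 2:
*Lum*, chr10:97404215-97404265, plus strand: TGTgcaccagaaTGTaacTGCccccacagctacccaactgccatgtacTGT
*Fmod*, chr1:133968187-133968237, plus strand: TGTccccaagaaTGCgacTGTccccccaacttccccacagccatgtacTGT
*Prelp*, chr1:133842889-133842939, minus strand: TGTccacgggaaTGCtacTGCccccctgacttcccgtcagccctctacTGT
*Kera*, chr10:97444769-97444819, plus strand: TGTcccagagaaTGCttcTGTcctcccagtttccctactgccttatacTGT
*Omd*, chr13:49743135-49743185, plus strand: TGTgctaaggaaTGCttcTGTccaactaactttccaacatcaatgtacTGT

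In class III the first gap was 2 residues and the last 6, and both stretches lay in exon 4:
*Ogn*, chr13:49769042-49769080, plus strand: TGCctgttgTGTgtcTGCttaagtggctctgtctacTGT
*Epyc*, chr10:97510550-97510588, plus strand: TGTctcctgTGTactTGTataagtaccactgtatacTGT

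The closest protein pairs were decorin and biglycan (56.4% identical over 353 aligned residues), PRELP and keratocan (53.6% over 347) and asporin and biglycan (53.3% over 366). No stretch of 50 bases was shared between the reference transcripts of any pair. Between the start of the protein and the first cysteine lay 11 aspartates in asporin and in epiphycan, 7 in biglycan and osteoglycin and 4 in decorin. The same stretch held 11 tyrosines in fibromodulin, 8 in osteomodulin and 0 in PRELP.

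All 10 genes passed the filter on low counts, so none was lost before testing. Total counts ranged from 17461544 to 18462073 per embryo, and levels below are given in CPM (counts scaled to an effective library size of 1000000). *Hmx1* had 376 to 526 counts in the WT embryos and 976 to 1356 in the *mEC1dup/dup* embryos. All listed markers of fibroblasts, cartilage, skeletal muscle, epidermis, endothelium and red blood cells also passed the filter. *Xist*, made from the inactive X chromosome of female cells, had at most 5 counts in the WT libraries, and 12812, 19040, 18165, 2096 and 0 counts in *mEC1dup/dup* embryos 1 to 5. The embryonic globins *Hbb-y*, *Hbb-bh1* and *Hba-x*, which give way to later globins as development goes on, made up 21.3% ± 2.07 of globin counts in WT (SD, n = 5) and 34.3% ± 1.22 in *mEC1dup/dup* (SD, n = 5; two-sided exact permutation test, p = 0.00794).

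Most of the proteoglycan genes were lower in the *mEC1dup/dup* prominence. When 16426 genes were tested by quasi-likelihood in edgeR and adjusted by Benjamini-Hochberg, 7 of the 10 fell (*Kera*, *Prelp*, *Fmod*, *Aspn*, *Bgn*, *Lum* and *Ogn*; adjusted p of at most 0.05 and average log2 CPM of at least 1). The count was 4 without WT embryo 2 or any 1 of mutants 3, 4 and 5, 1 at an adjusted p of at most 0.01, and 0 with *Xist* or the share of embryonic globins as a covariate. With all 10 embryos and genotype alone, the rule called 1.81% of all tested genes lower and 0.834% higher, and 0 of the 10 members was called higher (0 also at an unadjusted p under 0.05, and 0 in the Wald test of DESeq2). The log2 fold changes of all 10 were below zero, from -0.82 to -0.18, with a median of -0.30, beside a median of -0.00 over all tested genes. For 4 of the 10 (*Lum*, *Aspn*, *Fmod* and *Kera*), every *mEC1dup/dup* embryo was below every WT embryo, which held for 2.75% of all tested genes. Summed over the 10 genes, the level was 1976 ± 142 CPM in WT and 1599 ± 73.4 CPM in *mEC1dup/dup* (SD, n = 5 each), 19.1% lower. In bulk tissue, fewer cells that make these proteins and less RNA per such cell cannot be told apart.

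**Figure D1:**
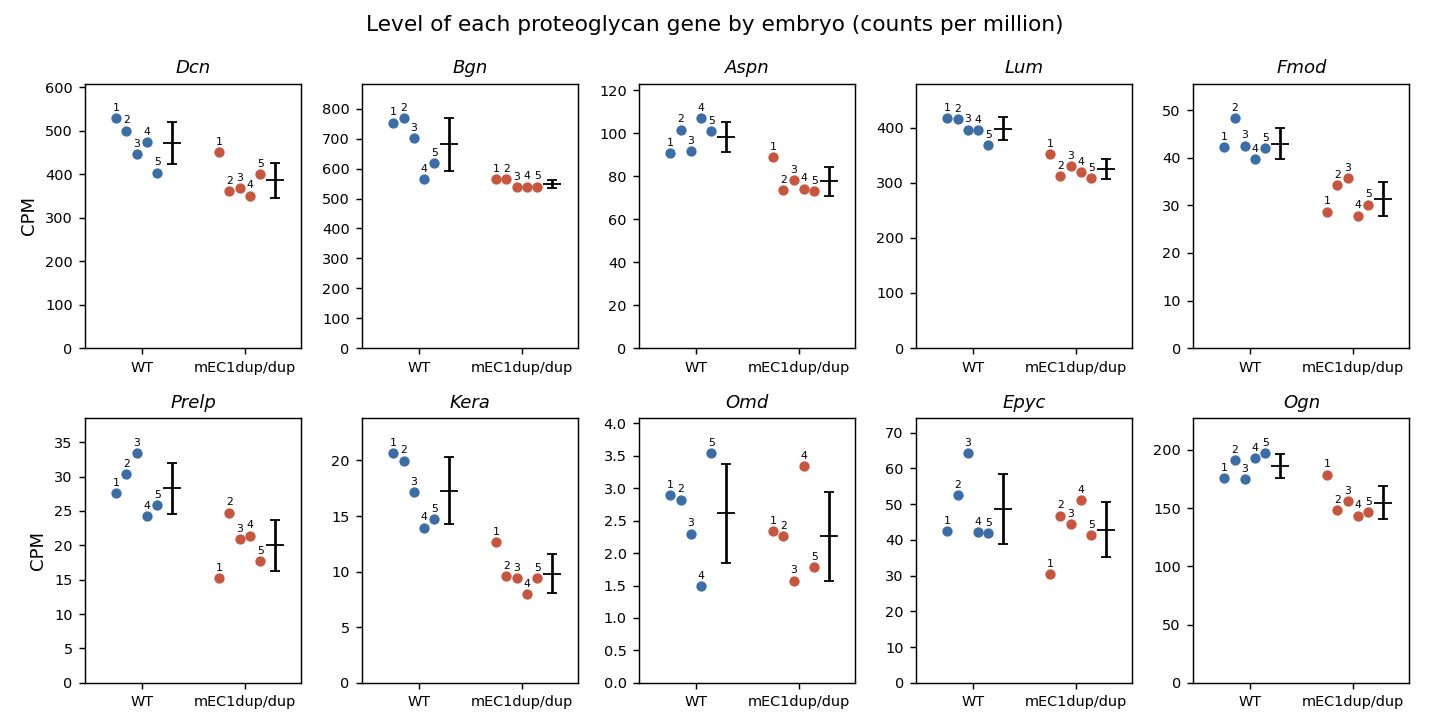
Level of each of the 10 genes in CPM (vertical axes, each from 0) in 5 WT (blue) and 5 mEC1dup/dup (red) embryos, with the replicate number above each point and the mean and SD in black. The groups do not overlap for Aspn, Lum, Fmod and Kera, and mEC1dup/dup embryo 1 is the highest of its group for Dcn, Bgn, Aspn, Lum, Kera and Ogn and the lowest for Prelp and Epyc.

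Among the class I genes, *Dcn* encodes decorin, which decorates collagen fibrils and binds TGF-beta. It measured 529, 501, 447, 475 and 404 CPM in WT embryos 1 to 5 and 451, 361, 369, 351 and 400 CPM in *mEC1dup/dup* embryos 1 to 5. Only *mEC1dup/dup* embryo 1 reached into the WT range. The log2 fold change was -0.29 ± 0.08 (SE), and *Dcn* did not pass the test (adjusted p = 0.0748). It passed without WT embryo 5 (adjusted p = 0.0417), without *mEC1dup/dup* embryo 1 (0.0245), with no filter on low counts (0.0449), with the replicate block (0.0240) and in the DESeq2 Wald test (0.00973), and in none of the other alternatives run, where adjusted p reached 0.954.

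*Bgn*, on the X chromosome, encodes biglycan, the close relative of decorin found at cell surfaces, bone and cartilage. It measured 754, 769, 702, 564 and 619 CPM in WT and 566, 564, 538, 540 and 540 CPM in *mEC1dup/dup*. WT embryo 4 sat at the level of the mutants, and the 5 mutants lay close together, with a coefficient of variation of 2.55% against 12.9% in WT. *Bgn* fell by 0.31 ± 0.07 on the log2 scale (SE; adjusted p = 0.0413), but the call was lost on leaving out any 1 embryo other than WT 4 and WT 5, with adjusted p from 0.0598 to 0.126.

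*Aspn* encodes asporin, which binds collagen and TGF-beta and carries no sugar chain of the family's kind. It measured 90.7, 102, 91.8, 107 and 101 CPM in WT and 88.9, 73.6, 78.1, 74.2 and 72.9 CPM in *mEC1dup/dup*. The groups did not overlap, although *mEC1dup/dup* embryo 1 came close to the lowest WT embryo. *Aspn* fell by 0.34 ± 0.06 on the log2 scale (SE; adjusted p = 0.0127) and was called in all 10 fits that left out 1 embryo.

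Among the class II genes, *Lum* encodes lumican, which limits the thickness of fibrils in skin and cornea. It measured 417, 416, 396, 395 and 368 CPM in WT and 353, 313, 330, 319 and 308 CPM in *mEC1dup/dup*. Every mutant lay below every WT embryo, and its coefficient of variation was the lowest of the family in WT (5.05%). *Lum* fell by 0.30 ± 0.05 on the log2 scale (SE), and its adjusted p of 0.0074 was the lowest of the 10.

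*Fmod* encodes fibromodulin, which shares a collagen site with lumican and is prominent in tendon and cartilage. It measured 42.3, 48.3, 42.5, 39.7 and 42.1 CPM in WT and 28.7, 34.3, 35.7, 27.8 and 30.2 CPM in *mEC1dup/dup*. The groups did not overlap, and mutants 2 and 3 were the highest of theirs. *Fmod* fell by 0.46 ± 0.08 on the log2 scale (SE; adjusted p = 0.0101).

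*Kera* encodes keratocan, best known from the corneal stroma and also made in other connective tissues. It measured 20.7, 19.98, 17.1, 14.0 and 14.7 CPM in WT and 12.7, 9.59, 9.45, 7.98 and 9.42 CPM in *mEC1dup/dup*. The groups did not overlap. With genotype alone in the fit, *Kera* had the largest change of the 10 genes. It fell by 0.82 ± 0.14 on the log2 scale (SE, adjusted p = 0.0101), which is 43.2% below the WT mean. *Lum*, *Fmod* and *Kera* were each called in all 10 fits that left out 1 embryo.

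*Prelp* encodes a heparin-binding member thought to link basement membranes to collagen. It measured 27.6, 30.4, 33.5, 24.2 and 25.9 CPM in WT and 15.2, 24.8, 21.0, 21.4 and 17.7 CPM in *mEC1dup/dup*. Mutant 2 overlapped WT embryo 4, and mutant 1, the highest of its group for 6 other members, was the lowest here. *Prelp* fell by 0.50 ± 0.12 on the log2 scale (SE; adjusted p = 0.0483), close to the threshold: only leaving out WT 4 or mutant 2 kept the call, and the other 8 left-out fits gave adjusted p from 0.0686 to 0.115. It was also lost with the size factors of DESeq2 (0.0505).

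*Omd* encodes osteomodulin (osteoadherin) of bone matrix and was the scarcest member, with 27 to 64 counts per embryo. It measured 2.89, 2.82, 2.30, 1.496 and 3.55 CPM in WT and 2.34, 2.26, 1.58, 3.34 and 1.79 CPM in *mEC1dup/dup*. The groups overlapped throughout. The log2 fold change was -0.21, with a 95% interval from -0.70 to 0.29 (adjusted p = 0.753). The interval held 0 and the estimates of all other members but *Kera*.

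Among the class III genes, *Ogn* encodes osteoglycin (mimecan), a regulator of fibril growth in skin, tendon and bone. It measured 176, 191, 175, 193 and 197 CPM in WT and 179, 148, 156, 144 and 147 CPM in *mEC1dup/dup*. Mutant 1 lay within the WT range and the other 4 mutants below it. *Ogn* fell by 0.27 ± 0.06 on the log2 scale (SE; adjusted p = 0.0322). The call was lost without WT embryo 2 or 5 or without any of mutants 2 to 5 (adjusted p from 0.0699 to 0.0989).

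*Epyc* encodes epiphycan, which is made by cartilage. It measured 42.4, 52.6, 64.4, 42.1 and 41.9 CPM in WT and 30.5, 46.8, 44.5, 51.1 and 41.4 CPM in *mEC1dup/dup*. The groups overlapped, WT embryo 3 was the highest and mutant 1 the lowest. The log2 fold change was -0.18, with a 95% interval from -0.46 to 0.10 (adjusted p = 0.584).

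**Figure D2:**
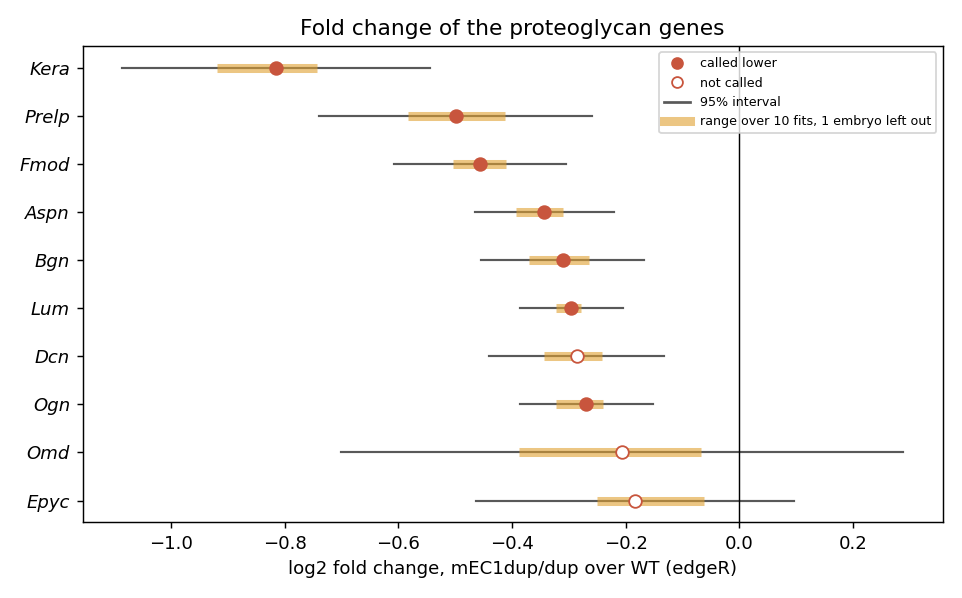
log2 fold change of each gene (horizontal axis, mEC1dup/dup over WT, edgeR) with its 95% interval (grey line) and the range over the 10 fits that leave out 1 embryo (yellow bar); filled points were called lower. All 10 points lie below 0, from -0.82 for Kera to -0.18 for Epyc, and the left-out ranges stay below 0.

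The calls ended when the embryonic globins or *Xist* were taken into the fit. When the share of embryonic globins was a covariate, 0 members were called. At an unadjusted p under 0.05, 2 members were lower, beside 384 lower and 409 higher of the 16426 tested genes, and the estimates of *Dcn*, *Bgn*, *Omd* and *Epyc* turned positive with adjusted p from 0.898 to 0.969. The estimate of *Kera* went to -0.01, and the largest were those of *Aspn* (-0.91) and *Ogn* (-0.75). Since the share did not overlap between the genotypes, its part and that of the genotype cannot be told apart. When log2 CPM of *Xist* entered as a covariate, 0 members were called, all 10 estimates stayed below zero and their median was -0.36. At an unadjusted p under 0.05, 7 members were lower, beside 932 lower and 603 higher of all tested genes. *Xist* had at most 5 counts in WT and 2096 to 19040 in mutants 1 to 4, with 0 in mutant 5. Its part and that of the genotype therefore cannot be cleanly told apart. Without mutants 1, 2 and 3, the libraries with the highest *Xist*, only mutants 4 and 5 remained, 0 were called and the median was -0.35. There 8 members were lower at an unadjusted p under 0.05, beside 1108 lower and 718 higher of all tested genes.

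Levels between genes were compared as CPM per kilobase of the reference transcript. In WT the order was *Bgn* (281 ± 36.4), *Lum* (162 ± 8.17), *Dcn* (77.2 ± 7.91), *Aspn* (41.5 ± 2.95), *Ogn* (36.0 ± 2.01), *Epyc* (19.1 ± 3.89), *Fmod* (13.8 ± 1.02), *Kera* (7.54 ± 1.32), *Prelp* (6.55 ± 0.851) and *Omd* (1.26 ± 0.369; SD, n = 5). The ranges of *Kera* and *Prelp* overlapped in WT, and those of all other neighbours in this order did not. Per kilobase of all annotated exons merged, the order was the same, but the ranges of *Dcn*, *Aspn* and *Ogn* overlapped and those of *Kera* and *Prelp* did not. In the *mEC1dup/dup* embryos *Kera* measured 4.29 ± 0.754 and *Prelp* 4.63 ± 0.849 CPM per kilobase of reference transcript, within their spread, and 3.65 ± 0.643 and 2.85 ± 0.521 per kilobase of merged exons, so their order depended on the length used.

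The mix of the family overlapped between the genotypes for all members but *Kera*. *Bgn* gave 34.4% ± 2.37 of the summed CPM of the 10 genes in WT and 34.4% ± 1.13 in *mEC1dup/dup*, *Dcn* gave 23.8% ± 1.5 and 24.1% ± 1.57, and *Lum* gave 20.2% ± 0.676 and 20.3% ± 0.539 (SD, n = 5 each). The share of *Kera* did not overlap, at 0.753% to 0.984% in WT and 0.519% to 0.735% in *mEC1dup/dup*. These shares describe the members alone and were not tested.

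Not all of the 10 genes varied together among embryos of 1 genotype. Deviations of log2 CPM from the genotype mean were compared for all 45 pairs over the 10 embryos, as a description, since the points share libraries and scaling. The closest pair was *Ogn* and *Aspn* (Pearson's r = 0.94, Spearman's rho = 0.83, r = 0.93 without the 2 embryos farthest from the median). The next was *Prelp* and *Epyc* (r = 0.88, rho = 0.90, 0.89 without 2 embryos). *Lum*, *Dcn* and *Kera* formed another set, with r of 0.78 to 0.81 that dropped to 0.54 to 0.62 without 2 embryos. *Kera* was as close to *Bgn*, on another chromosome (r = 0.78, rho = 0.85, 0.73 without 2 embryos). *Ogn* and *Epyc*, both of class III, ran against each other (r = -0.75, rho = -0.78), but only to -0.40 without 2 embryos. Over the 10 pairs on 1 chromosome the median r was 0.25, and over the 35 other pairs it was 0.11.

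**Figure D3:**
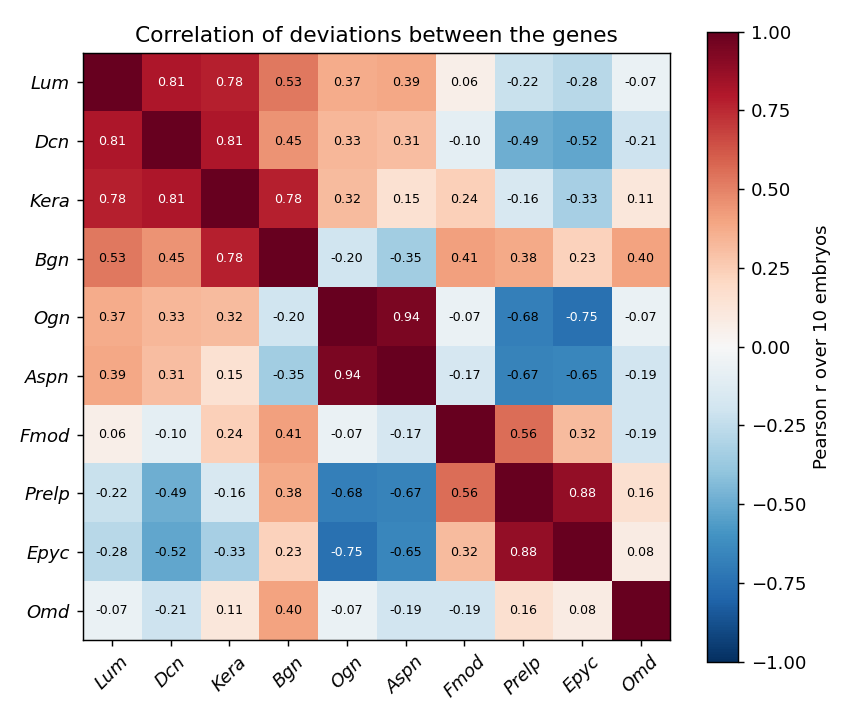
Pearson's r of deviations from the genotype mean (log2 CPM, 10 embryos) for each pair of the 10 genes, from -1 (blue) to 1 (red). Lum, Dcn and Kera form a block at 0.78 to 0.81, Ogn and Aspn pair at 0.94, Prelp and Epyc pair at 0.88, and Omd has no partner above 0.40.

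*Prelp* and *Epyc* varied with cartilage markers and against muscle markers. Over the 10 embryos the deviation of *Epyc* had r = 0.94 and that of *Prelp* r = 0.85 with the mean deviation of 13 chondrocyte markers (0.97 and 0.81 without 2 embryos), whereas *Ogn* had r = -0.80, which became -0.32. With the mean deviation of 13 skeletal muscle markers *Prelp* had r = -0.71 and *Epyc* r = -0.73 (-0.73 for both without 2 embryos), and the other 8 members had r from -0.34 to 0.58. Of the 13 chondrocyte markers, 0 were called in either direction, and their median log2 fold change was -0.23. The summed level of these chondrocyte markers ran from 7324 to 11750 CPM in WT and from 3234 to 9473 CPM in *mEC1dup/dup*. In it *mEC1dup/dup* embryo 1 was the lowest of all. *Col2a1*, the main cartilage collagen, measured 1369 CPM there and 3055 to 4193 CPM in the other mutants. The part of cartilage or muscle content in the levels of *Prelp* and *Epyc* was not tested.

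**Figure D4:**
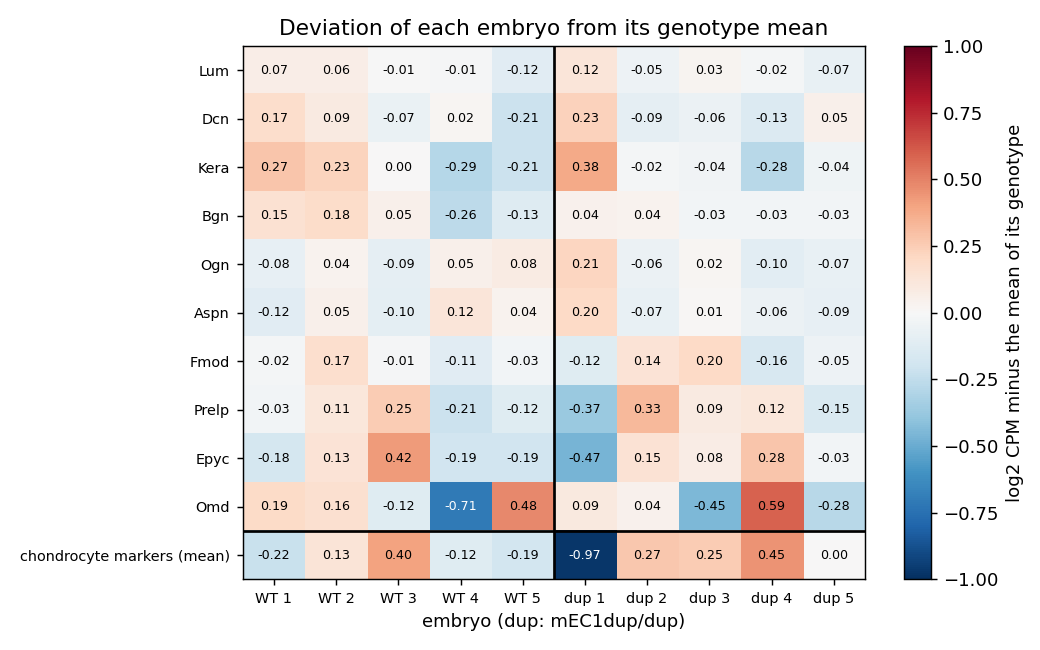
Deviation of log2 CPM from the mean of its genotype for each gene (rows) in each embryo (columns), with the mean of 13 chondrocyte markers below. In mEC1dup/dup embryo 1 the chondrocyte markers stand at -0.97, Epyc at -0.47 and Prelp at -0.37, whereas Kera stands at 0.38, Dcn at 0.23 and Ogn at 0.21.

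*Bgn* varied with collagen I, among other genes. Its deviations had r = 0.97 with *Col1a2* and 0.92 with *Col1a1*, the chains of the main collagen of skin and bone (0.94 and 0.89 without 2 embryos). With *Col3a1* they had r = 0.85, which dropped to 0.59 without 2 embryos. They had r = 0.91 both with the mean deviation of the 13 collagen genes and with that of 12 TGF-beta ligand, receptor and latency genes (0.85 and 0.82 without 2 embryos), 0.87 with *Htra1* and 0.84 with *Ltbp2*. *Col1a1* measured 7109, 6292, 5737, 3650 and 5243 CPM in WT and 4640, 4405, 4141, 4314 and 4487 CPM in *mEC1dup/dup*. As for *Bgn*, WT embryo 4 was low and the mutants lay close together. By the mean deviation of all 10 members, the most similar other genes were *Itgav*, *Unc5d*, *Cyp26b1*, *Fzd1* and *Tent5a* (r from 0.95 to 0.96 over 10 embryos), of which 0 were called, with adjusted p from 0.138 to 0.803. That mean does not stand for most single members. Against the mean of the other members, *Bgn* had r = 0.88, and the rest ran from -0.325 (*Aspn*) to 0.417 (*Kera*).

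Markers of other cell types also differed between the genotypes. Of 11 epidermis markers 7 were called lower, led by *Dmkn*, *Krt1* and *Krt10* (median log2 fold change -0.69), and their summed level was 992 to 1908 CPM in WT and 725 to 955 CPM in *mEC1dup/dup*. Among embryos of 1 genotype their mean deviation had r of 0.84 with *Dcn*, 0.86 with *Kera*, 0.78 with *Bgn* and 0.73 with *Lum*, and from -0.18 to 0.09 with the other 6 members, of which *Ogn*, *Aspn*, *Fmod* and *Prelp* were called lower. Without the 2 farthest embryos r was 0.76, 0.82, 0.89 and 0.58 for the first 4, and from -0.47 to 0.23 for the other 6. Of 13 skeletal muscle markers 6 were called lower, led by *Ckm*, *Myf6* and *Tnnt3* (median -0.52), and their summed level was 1772 to 2706 CPM in WT and 1018 to 1642 CPM in *mEC1dup/dup*. Of 10 macrophage and mast cell markers 2 were called lower, the mast cell proteases *Cpa3* and *Cma1*. Their mean deviation had r of 0.87 with *Dcn* (0.73 without 2 embryos) and from -0.62 to 0.53 with the other 9 members. Of 6 endothelial markers 0 were called (median -0.02). Of 7 globin genes 1 was called lower (*Hba-a2*) and 2 higher (*Hbb-y* and *Hba-x*). *Hba-a2* stood at 25.9 ± 1.76 CPM in WT (SD), beside 615 ± 105 CPM for *Hba-a1*. *Hba-a1* had a log2 fold change of 0.03 and was not called. The part of these differences in tissue make-up in the proteoglycan result was not tested.

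Of 9 dermal fibroblast markers, 1 was called lower, and the median log2 fold change was -0.01. Their summed level was 2380 to 2978 CPM in WT and 2511 to 3091 CPM in *mEC1dup/dup*. The called gene was *Dpt*, which encodes dermatopontin, a matrix protein that binds decorin: it fell from 79.2 ± 13.2 to 46.6 ± 7.21 CPM (SD, n = 5 each; log2 fold change -0.77, adjusted p = 0.00632). Among embryos of 1 genotype the mean deviation of these 9 markers had r of 0.86 with *Kera*, 0.79 with *Bgn*, 0.76 with *Lum* and 0.51 with *Dcn*, and from -0.08 to 0.37 with the other 6 members. Without the 2 farthest embryos these were 0.74, 0.64, 0.69 and 0, and *Prelp*, at 0.09 over all 10, had 0.75, so the values of *Dcn* and *Prelp* rested on those embryos. *Pdgfra*, the receptor gene that marks most fibroblasts, stood at 522 ± 58.4 CPM in WT and 550 ± 40.0 CPM in *mEC1dup/dup*. Of 9 perimysial and tendon markers 2 were called lower, *C1qtnf3* (-0.86, adjusted p = 0.0458) and the tendon gene *Tnmd* (-0.60, adjusted p = 0.0124), and the median was -0.10. The estimates of 4 others (*Scx*, *Mkx*, *Thbs4* and *Osr1*, named after their values were seen) were above zero, from 0.20 to 0.29, and did not pass the test.

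Of 13 collagen genes whose products these proteoglycans bind or lie beside, 3 were called lower, and all 13 had log2 fold changes below zero (median -0.35). The called genes were *Col5a3* (-0.66, adjusted p = 0.0107), *Col14a1* (-0.48, adjusted p = 0.0238) and *Col12a1* (-0.45, adjusted p = 0.00393). *Col12a1* and *Col14a1* encode collagens that coat fibrils rather than build them. *Col12a1* measured 476, 422, 455, 377 and 412 CPM in WT and 303, 346, 316, 315 and 292 CPM in *mEC1dup/dup*, without overlap. Summed over the 13 genes the collagens ran from 19180 to 30150 CPM in WT and from 20240 to 21290 CPM in *mEC1dup/dup*. The overlap rested on WT embryo 4, and the other 4 WT embryos, from 23380 CPM upward, were above every mutant.

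**Figure D5:**
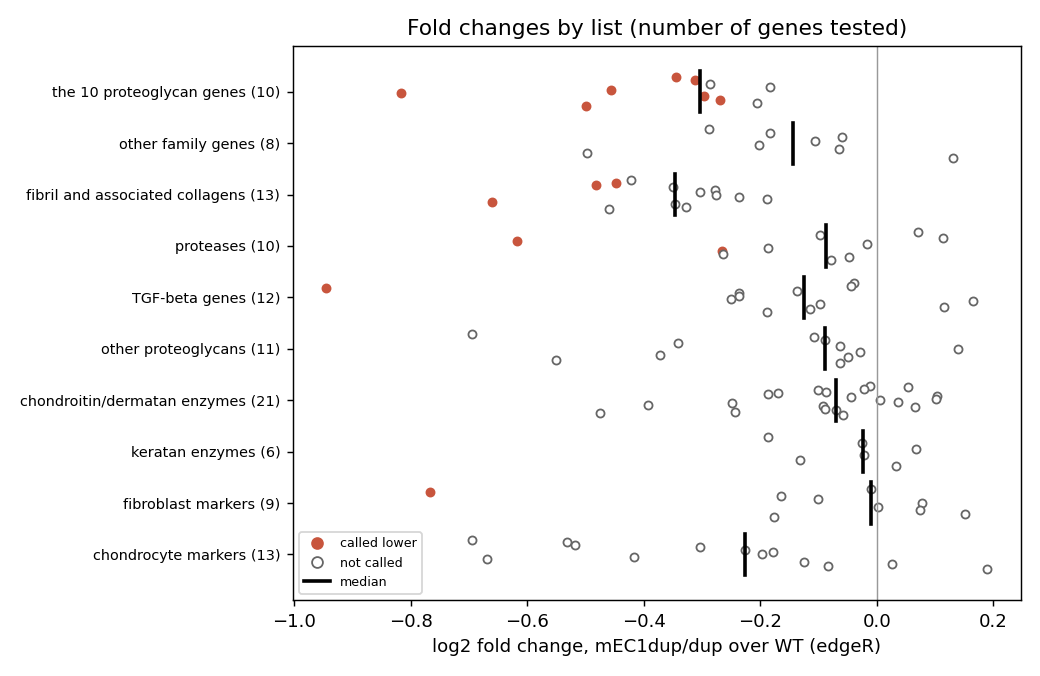
log2 fold change (horizontal axis, mEC1dup/dup over WT, edgeR) of every tested gene in 10 lists, with filled points called lower and a black bar at each list's median. The medians of the 10 proteoglycan genes (-0.30) and of the collagens (-0.35) lie left of 0, and those of the keratan sulfate enzymes (-0.02) and fibroblast markers (-0.01) lie near it.

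The enzymes that build the sugar chains showed no call. Of 21 tested genes for the linker and for chondroitin and dermatan sulfate, 0 passed in either direction (median -0.07), and of 6 for keratan sulfate 0 passed (median -0.02). The largest difference was that of *Xylt1*, which encodes the xylosyltransferase that starts the chain, at 58.5 ± 11.4 CPM in WT and 42.1 ± 7.62 CPM in *mEC1dup/dup* (log2 fold change -0.47, adjusted p = 0.0915). For *Csgalnact1* and *Chst12* every mutant lay below every WT embryo, and neither passed the test (adjusted p = 0.0846 and 0.0703).

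Of 10 tested genes for proteases that trim the propeptides or cleave the core proteins, or for enhancers of such processing, 2 were called lower, a protease and an enhancer. *Htra1*, a secreted protease that cuts decorin and biglycan, measured 132, 125, 110, 95.4 and 95.7 CPM in WT and 77.6, 73.3, 74.0, 64.4 and 74.4 CPM in *mEC1dup/dup*. No mutant reached the WT range (log2 fold change -0.62, adjusted p = 0.0045). *Pcolce*, which encodes an enhancer of procollagen processing, fell by 0.27 on the log2 scale (adjusted p = 0.0444). *Bmp1*, the protease that removes the propeptide of biglycan, stood at 333 ± 41.3 CPM in WT and 360 ± 28.0 CPM in *mEC1dup/dup*.

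Of 12 genes for TGF-beta ligands, receptors and latency proteins, 1 was called lower: *Ltbp2*, a microfibril protein related to the latent TGF-beta binding proteins. It measured 26.1, 21.98, 20.8, 12.9 and 16.8 CPM in WT and 10.1, 14.0, 9.72, 8.25 and 9.15 CPM in *mEC1dup/dup* (log2 fold change -0.94, adjusted p = 0.0162). Only mutant 2 reached above the lowest WT embryo. The median over the 12 was -0.12.

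Other family genes and other proteoglycans showed no call. Of 8 family genes that are no members here (*Optc*, *Ecm2*, *Chad*, *Chadl*, *Nyx*, *Tsku*, *Podn* and *Podnl1*), 0 passed in either direction (median -0.14), and of 11 large or other matrix proteoglycans 0 passed (median -0.09). *Acan*, the aggrecan gene of cartilage, stood at 217 ± 53.3 CPM in WT and 134 ± 44.0 CPM in *mEC1dup/dup* (log2 fold change -0.69, adjusted p = 0.128).

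In the genome, 9 of the 10 members stood in 3 clusters (GRCm39). *Dcn*, *Lum*, *Kera* and *Epyc* lay in that order on the plus strand of chromosome 10 within 203 kb (97315275 to 97518316). *Aspn*, *Omd* and *Ogn* lay on the plus strand of chromosome 13 behind *Ecm2*, within 122 kb (49658236 to 49780412). *Prelp*, on the minus strand, and *Fmod*, on the plus strand, lay on chromosome 1 beside *Optc* within 151 kb (133824937 to 133976015), and *Bgn* stood alone on the X chromosome (72527208 to 72539541). Not every gene of a cluster was called: *Ecm2*, which shares a cluster with *Aspn* and *Ogn*, had a log2 fold change of -0.06 ± 0.13 (SE; adjusted p = 0.870), and *Epyc* and *Omd* were not called beside called neighbours. The tested genes that flank the clusters and *Bgn* (*Btg1*, *Atp2b1*, *Tes3-ps*, *Nol8*, *Iars1*, *Atp2b4*, *Btg2*, *Haus7*, *Atp2b3* and *Dusp9*) were not called.

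Antisense genes overlapped 18.8% of the exonic bases of *Ogn*, 9.12% of *Aspn*, 4.98% of *Prelp* and 53.7% of *Epyc*, and whether counting used strand is not given in the sources used here. *Cenpp*, the one opposite *Ogn* and *Aspn*, had 72 to 109 counts per embryo and a log2 fold change of 0.07 ± 0.14 (SE), and those opposite *Prelp* and *Epyc* had at most 6 counts.

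The start regions of the members shared few short motifs. In the 300 bases from 250 before to 50 after each start site, both strands were searched for 4 motifs, any of which may overlap another. HMX proteins bind the core CAAGTG, and TBP, which sets the start site in many promoters, binds TATAAA. RUNX proteins bind the core TGTGGT, and AP-1 factors bind the motif TGANTCA. The HMX core was in 0 of the 10 members, in 14.3% of 21770 protein-coding promoters and in 12.7% of the 14477 that belong to tested genes. The AP-1 motif was in 0 of 10, 7.1% and 5.4%. The TBP motif was in 3 of 10 (*Ogn*, *Aspn* and *Epyc*), 13.2% and 8.2%, and the RUNX core in 2 of 10 (*Lum* and *Dcn*), 15.3% and 13.2%. The matches to the TBP motif lay 87 and 85 bases before the start site in *Ogn*, 207 and 178 in *Aspn* and 244 in *Epyc*. *Kera*, in the same cluster, varied with *Lum* and *Dcn* and held none of the 4 motifs. Whether the RUNX core bears on the levels of *Lum* and *Dcn* was not tested. Their windows are shown, as those that hold this core, on the minus strand, 207 and 199 bases before their start sites. Capitals mark it as read on the plus strand:
*Lum*, chr10:97400740-97401039, plus strand: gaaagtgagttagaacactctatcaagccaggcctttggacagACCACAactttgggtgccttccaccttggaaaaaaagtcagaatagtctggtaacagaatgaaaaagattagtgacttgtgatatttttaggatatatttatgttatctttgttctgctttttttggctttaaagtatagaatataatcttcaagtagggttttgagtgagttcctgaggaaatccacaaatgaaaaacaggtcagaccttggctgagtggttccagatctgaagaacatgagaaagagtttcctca
*Dcn*, chr10:97315025-97315324, plus strand: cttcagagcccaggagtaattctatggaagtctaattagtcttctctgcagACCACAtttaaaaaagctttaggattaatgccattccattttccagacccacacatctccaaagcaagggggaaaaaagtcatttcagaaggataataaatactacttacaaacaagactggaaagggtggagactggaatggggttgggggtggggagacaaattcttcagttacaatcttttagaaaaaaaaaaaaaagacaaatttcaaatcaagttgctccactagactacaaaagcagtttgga
A match is a description of the letters and not a site of binding.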

How the data were processed

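Per the labels and the study's methods, the authors used fastp to trim the read pairs, STAR to align them to GRCm39 and featureCounts to count them by gene, and they deposited the raw counts, not normalized. Annotation release and strand use are not given in the sources used here. GENCODE M39 gave symbols for 49355 of 53465 genes, the rest holding 0.111% of counts, and sequences came from GRCm39 (Biopython version 1.88). The members and lists were chosen with earlier results of these data known.

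Counts were filtered with filterByExpr, scaled by TMM over the tested genes and fitted with edgeR version 4.0.16 (glmQLFit, glmQLFTest; R version 4.3.3) on genotype alone. A call needed an adjusted p of at most 0.05 with an average log2 CPM of 1 or more, as in the study. SE is the size of the log2 fold change divided by the square root of F, and single-embryo log2 CPM used a prior count of 2. Named were all 10 members, the called genes of each list (at most the 3 largest per direction), cluster neighbours and the 5 genes most like the mean of the members. *Xylt1*, *Csgalnact1*, *Chst12*, *Acan*, *Pdgfra*, *Bmp1*, *Col1a1*, *Col1a2*, *Col2a1*, *Col3a1* and *Hba-a1* were named after their values were seen. Alternatives were DESeq2 (version 1.42.0), limma-voom (limma version 3.58.1), other scaling and filters, a stricter threshold, the replicate block, *Xist* or globin covariates, and each embryo left out. Library sizes over all rows and scaling to total counts were added after seeing the data. Replicates were separate embryos, siblings from separate litters. Reads carry no molecular identifiers, so counts of 27 to 64, as for *Omd*, limit precision. Figures used matplotlib version 3.10.9.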

Additional observations from a re-analysis of the deposited data

How the results depend on the processing

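The number of members called lower, 7 at first, was 6 to 8 under other scalings, filters, limma-voom and the DESeq2 Wald test, and 0 members were called higher in any fit. It was 1 (*Lum*) at an adjusted p of at most 0.01, and 0 with *Xist* as a covariate, without the 3 libraries highest in *Xist*, and with the share of embryonic globins as a covariate. Leaving out 1 embryo gave 4 to 7. Over all genes, 297 were called lower and 137 higher. These became 506 and 315 in the DESeq2 Wald test, 62 and 16 at the stricter threshold, 1 and 2 with *Xist*, 0 and 2 without the 3 libraries, and 0 and 0 with the globin share (384 and 409 at an unadjusted p under 0.05). Leaving out 1 embryo gave 107 to 449 lower and 37 to 199 higher, the fewest without mutant 3 and the most without WT embryo 4. With the globin share the log2 fold changes of *Dcn* (0.17), *Bgn* (0.33), *Omd* (0.37) and *Epyc* (0.32) turned positive, and that of *Kera* was -0.01. The causes were not tested.

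Libraries with the same number are different embryos. The correlation of their deviations ran from -0.06 to 0.34 over the 5 pairs, with a mean of 0.16. Over the 20 other pairs it ran from -0.31 to 0.27, with a mean of -0.04. Whether the numbers pair the libraries was not tested, and the main fit used genotype alone. With the replicate block, 8 members (*Dcn* added, adjusted p = 0.0240), 487 genes lower and 200 higher were called.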
